A study of Mus musculus with 4 samples.

Results

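The 9 genes Dlx1, Dlx2, Dlx5, Dlx6, Lhx6, Gad1, Gad2, Slc32a1 and Calb2 were followed in RNA of whole fetal mouse brain after maternal food shortage. Their spots were taken by symbol and not by value: every non-control spot whose gene name in the array files was one of the 9. This gave 15 probes on 24 spots per array, out of 28104 named genes and 41174 probes on 43379 spots. The 9 genes themselves were chosen with earlier results of these data known. All animals were C57BL/6J. In the food deprivation group (FD) the dams went without food overnight on gestation day 17. In the food restriction group (FR) the daily chow was cut to 50% of the control amount between gestation days 10 and 17, with caesarean section on day 18; the day of collection is not stated separately for FD. Control dams ate freely. RNA of 5 fetuses was pooled per group, and each treated pool was hybridised with control RNA on 2 arrays whose dyes were exchanged, so the series holds 4 arrays, with the treated pool in Cy5 on array 1 and in Cy3 on array 2 of each comparison. The labels do not say whether FD and FR shared a control pool, so the control RNA is named by its arrays. The comparisons ask how short and long maternal undernutrition relate to fetal brain transcripts. With 1 pool per condition the 2 arrays are technical repeats, no difference between conditions could be tested, and no p-value is given.

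GABAergic interneurons of the forebrain arise in the ganglionic eminences of the ventral telencephalon and migrate into cortex, hippocampus and olfactory bulb. The homeobox genes Dlx1 and Dlx2 act early in these progenitors, Dlx5 and Dlx6 act downstream of them, and the LIM homeobox gene Lhx6 marks the interneurons of the medial eminence. Gad1 and Gad2 encode the glutamate decarboxylases that make GABA, Slc32a1 encodes the transporter that loads it into synaptic vesicles, and Calb2 encodes calretinin, a calcium-binding protein of an interneuron subset and of other neurons. Gad1, Gad2 and Slc32a1 are not restricted to interneurons, since striatal, cerebellar and brainstem GABA neurons use the same decarboxylases and transporter. The homeobox genes cannot be assigned to interneurons alone in this RNA either. In whole brain, fewer cells of a type and less RNA per cell cannot be told apart.

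In build mm9, used by the array files, 6 of the 9 genes had their probes on chromosome 2 (Gad2, Lhx6, Gad1, Dlx1, Dlx2 and Slc32a1), a chromosome that carried 8.24% of the measured genes with coordinates. Dlx5 and Dlx6 lay together on chromosome 6, and Calb2 on chromosome 8. The array files give no exon or untranslated region for these positions. The Dlx genes sit in convergent pairs, Dlx1 with Dlx2 and Dlx5 with Dlx6. The 250 bases before the annotated starts of Dlx1 (chr2:71529195-71529444, plus strand) and Dlx2 (chr2:71546755-71547004, minus strand), from RefSeq on GRCm38.p6, are shown because both genes were above control on every array on which they were read, as described below; capitals mark the GC box GGGCGG on either strand.
Dlx1 promoter: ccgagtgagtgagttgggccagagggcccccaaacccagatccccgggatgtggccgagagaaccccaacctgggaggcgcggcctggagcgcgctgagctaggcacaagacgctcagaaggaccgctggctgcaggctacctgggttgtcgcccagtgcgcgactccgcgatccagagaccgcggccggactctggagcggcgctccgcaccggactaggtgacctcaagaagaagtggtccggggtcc
Dlx2 promoter: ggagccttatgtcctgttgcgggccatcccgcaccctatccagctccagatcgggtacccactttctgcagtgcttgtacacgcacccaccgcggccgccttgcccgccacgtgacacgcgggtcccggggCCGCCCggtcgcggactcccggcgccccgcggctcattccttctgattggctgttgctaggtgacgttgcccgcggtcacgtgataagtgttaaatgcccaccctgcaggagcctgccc
Both windows were rich in CpG, with 22 in Dlx1 and 24 in Dlx2, against a median of 6 over 32851 promoters of the same length. The Dlx2 window held 1 GC box and the Dlx1 window 0, and 32.7% of all promoters held at least 1. The homeodomain core TAATT, searched on both strands, was in neither window and in 25.03% of all promoters. Promoters of 6 of the 9 genes were available, and those of Dlx5, Dlx6 and Calb2 were not. The windows of Gad1, Gad2, Lhx6 and Slc32a1 were also above the median in CpG, from 7 at an Lhx6 start to 17 in Gad1. A high CpG count was thus not particular to Dlx1 and Dlx2.

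The 4 probes of Dlx6 and Calb2 shown here have an open reading frame over their full length of 60 bases in at least 1 of 3 frames, and are printed because the 3 Calb2 probes read different stretches of 1 mRNA and can be set against each other.
Dlx6 A_52_P556908: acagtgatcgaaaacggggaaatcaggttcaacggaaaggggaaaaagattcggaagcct
Calb2 A_51_P311436: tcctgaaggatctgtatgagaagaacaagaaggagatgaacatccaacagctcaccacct
Calb2 A_52_P556433: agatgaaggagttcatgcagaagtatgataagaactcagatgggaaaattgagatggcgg
Calb2 A_52_P571780: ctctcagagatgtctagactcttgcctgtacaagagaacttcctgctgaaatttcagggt
The Dlx6 probe lies at chr6:6815092-6815151 and the second Calb2 probe at chr8:112678555-112678614. The first Calb2 probe, the one printed on 10 spots of each array, maps from chr8:112667073-112669583, a span of 2511 bases, and the last from chr8:112671252-112671959, a span of 708 bases, so both cross at least 1 splice junction.

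None of the 9 genes reached a 1.5-fold difference from control on both arrays, in FD or in FR. The mean log2 ratios of the GABA-making and GABA-loading genes lay between -0.19 and 0.17 on every measured probe. The homeobox genes Dlx1 and Dlx5 were above control on both arrays of each comparison, by 1.11-fold and 1.04-fold in FD and by 1.26-fold and 1.11-fold in FR in the mean. Of all measured genes 25.5% were above control on both arrays in FD and 28.3% in FR, and the share above in both comparisons was not counted. A log2 ratio of 0 means equal signal of treated and control RNA, and 1.5-fold is 0.58. A probe was called measured if the scanner software placed treated and control signal well above background each time it was hybridised in that comparison. A gene with several such probes took the value of its brightest. This was chosen within each comparison, so Gad2 and Lhx6 took their brighter probe in FD and their dimmer one in FR.

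Of the 9 genes 8 were measured in each comparison; Dlx2 was left out because its only spot carried an outlier flag of the scanner software on 1 array of each. The count past 1.5-fold was 0 of 8 in FD, where 0.217% of 17950 measured genes passed (0.0891% higher and 0.128% lower), and 0 of 8 in FR, where 1.01% of 18547 passed (0.582% higher and 0.431% lower). With so few genes passing over the whole array, a count of 0 of 8 is not a result about the 9 genes. In FD, 2 of the 8 were above 0 on both arrays and 0 were below, against 25.5% and 23.3% of all measured genes, so 2 of 8 had the same sign on both arrays against 48.8% of genes. In FR, 3 were above on both arrays (Dlx1, Dlx5 and Dlx6) and 1 below (Slc32a1), against 28.3% and 27.4%, so 4 of 8 had the same sign on both arrays against 55.7%. With 8 genes these counts are a description only. The median log2 ratio of the 8 was 0.05 in FD and 0.07 in FR, with 0.00 and 0.01 over all genes. The technical SD of a gene's mean over 2 arrays, taken from the gap between the arrays over all genes, was 0.113 in FD and 0.117 in FR. It leaves out variation between pools and between fetuses, and the number of arrays limits the precision. Across genes the gaps of FD and FR correlated at r = 0.682. A part of the gap that repeats with the dyes cancels in a mean over exchanged dyes, so this SD can be too large for that mean.

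**Figure D1:**
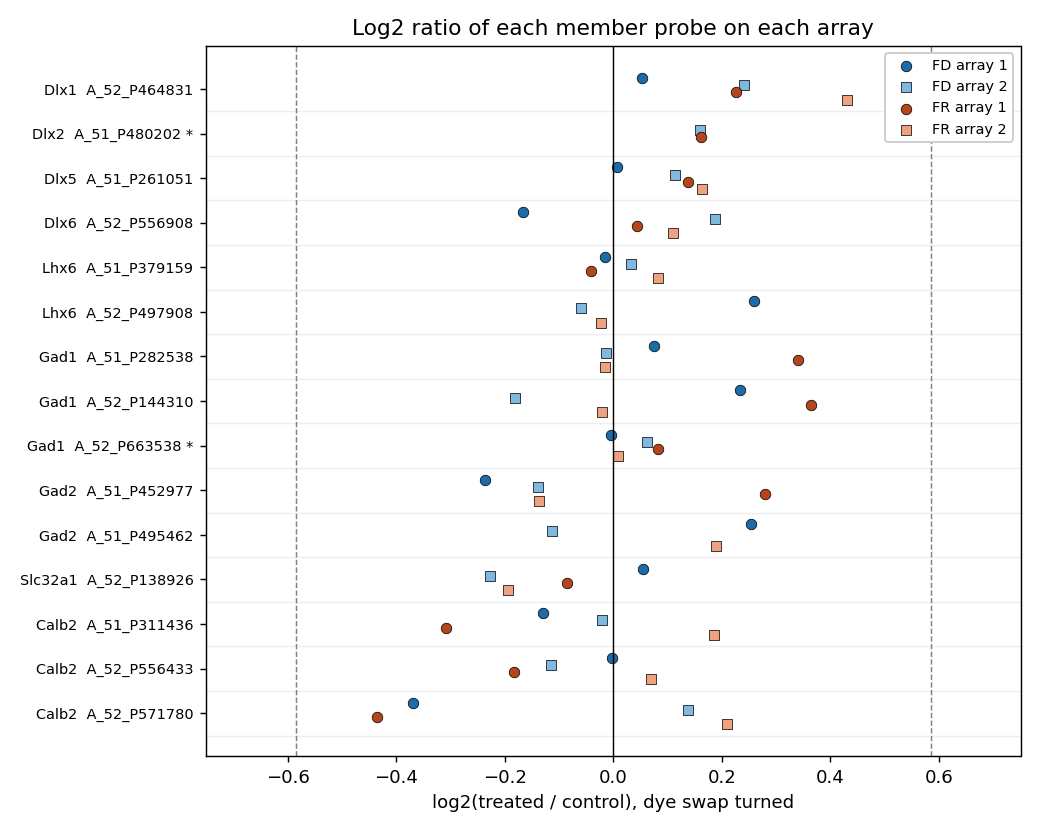
Log2 ratio of treated over control RNA for each of the 15 probes of the 9 genes (rows) on the 4 arrays (circles array 1, squares array 2; blue FD, red FR). Dashed lines mark 1.5-fold, an asterisk marks a probe not measured in FD, and flagged spots are left out. The probes A_52_P497908 of Lhx6 and A_51_P495462 of Gad2 carry no asterisk but were not measured in FR. All points lie inside the dashed lines, and Dlx1 and Dlx5 lie right of 0 on all 4 arrays.

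Dlx1 had the highest mean ratio of the 8 measured genes in both comparisons. Its probe (A_52_P464831, chr2:71371499-71371558) gave log2 ratios of 0.05 and 0.24 on FD arrays 1 and 2, a mean of 0.15. In FR it gave 0.23 and 0.43, a mean of 0.33, and 90.3% of all measured genes had a smaller mean difference in either direction. The FR mean was larger than the technical SD, and the FD mean was close to it. With the background model fitted on all spots, the FR mean of Dlx1 was 0.18. In log2 channel signal, the level of a pool on 1 array, Dlx1 stood at 10.36 and 10.47 in the FD pool against 10.31 and 10.23 in its control. It stood at 10.43 and 10.53 in the FR pool against 10.20 and 10.10 in its control. The treated levels did not overlap those of the control in either comparison, as was so, upwards, for 20.9% of genes in FD and 22.6% in FR. The levels of FD and FR overlapped each other, while those of the 2 control RNAs did not. The share of all genes whose 2 control RNAs did not overlap was not counted, so this is a description only.

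Dlx2 was measured on 1 array of each comparison without a flag, at 0.16 on FD array 2 and 0.16 on FR array 1 (A_51_P480202, chr2:71381553-71381612). With the flagged spots kept, a choice made after the values were seen, its log2 ratios were 0.10 and 0.16 in FD and 0.16 and 0.41 in FR, with means of 0.13 and 0.29. All 4 values were above 0 and none reached 1.5-fold.

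Dlx5 gave log2 ratios of 0.01 and 0.11 in FD and of 0.14 and 0.16 in FR (A_51_P261051, chr6:6828063-6828122). Its levels in FR, 8.90 and 8.89, lay above both control levels of 8.76 and 8.73, as was so for 22.6% of genes. Its FR mean of 0.15 was 0.08 with the background model fitted on all spots. In FD the levels of 8.79 and 8.95 overlapped the control levels of 8.78 and 8.84. Dlx6, its neighbour, changed sign between the FD arrays, at -0.17 and 0.19, and gave 0.04 and 0.11 in FR. Its signal was dim, with mean levels between 6.60 and 6.72 in the 4 pools, and its levels overlapped in both comparisons.

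The noncoding transcripts that run opposite to Dlx6 were measured by 3 probes. Dlx6os1, also known as Evf2, which acts on the Dlx5 and Dlx6 enhancers, had log2 ratios of -0.07 and -0.33 in FD and 0.01 and -0.39 in FR on its brighter probe. Its second probe gave -0.10 and -0.05 in FD and -0.18 and -0.16 in FR. Dlx6os2, named Dlx6as in the array files, gave -0.07 and -0.05 in FD and -0.05 and -0.04 in FR. The means of all 3 probes were smaller than 1.5-fold, and both antisense genes were named outside the rule for other genes, after their values were seen.

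**Figure D2:**
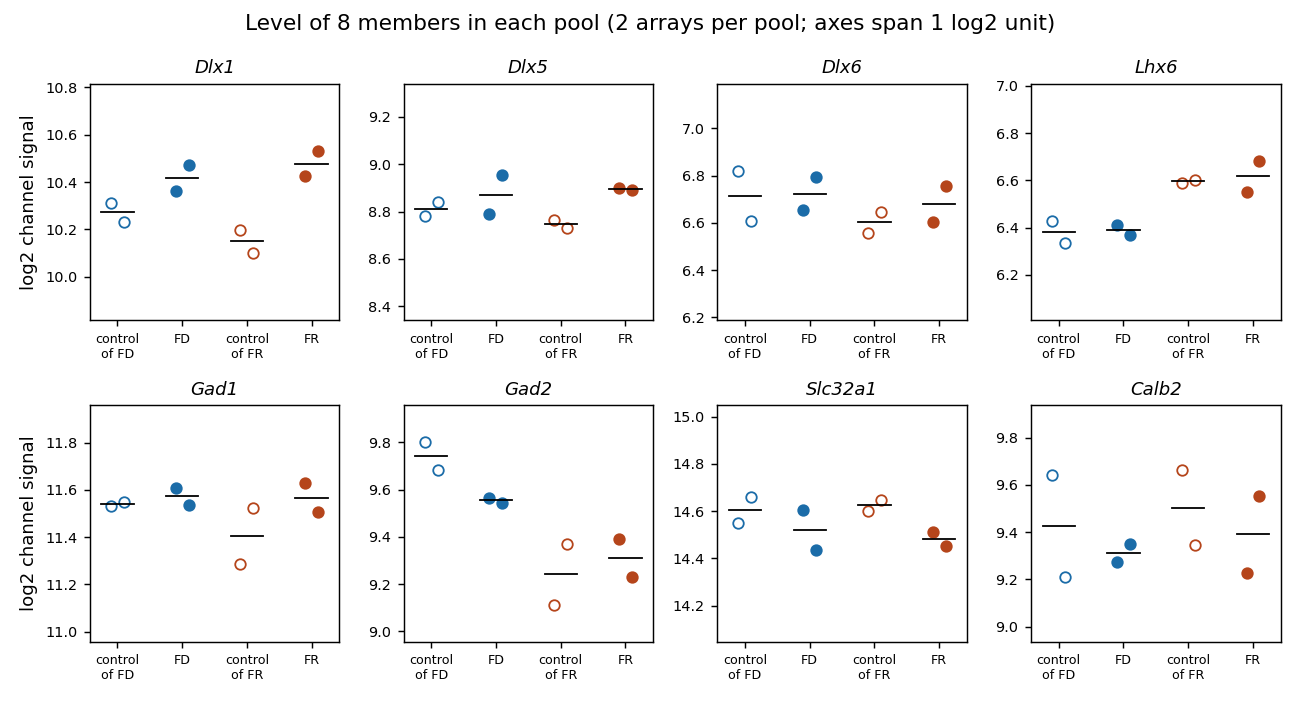
Log2 channel signal of the brightest probe measured in both comparisons for 8 genes, in the control RNA of the FD arrays, the FD pool, the control RNA of the FR arrays and the FR pool. Each point is 1 array, open for control and filled for treated, and the bar is their mean; all axes span 1 log2 unit. Dlx1 is the only gene of the 8 whose 2 treated pools both lie wholly above their controls. Of all genes 20.9% did so in FD and 22.6% in FR, and the share that did so in both was not counted.

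Lhx6, needed for interneurons of the medial eminence to migrate and mature, had a dim and a bright probe. The dim probe (A_51_P379159, chr2:35939206-35939263) gave -0.02 and 0.03 in FD and -0.04 and 0.08 in FR. The bright probe (A_52_P497908, chr2:35937499-35937558) gave 0.26 and -0.06 in FD, and -0.02 on FR array 2. Its spot on FR array 1 was flagged, at 0.51 when kept. Wherever a probe was read on both arrays without a flag, its sign differed between them. The levels of the dim probe, with means of 6.39 and 6.38 in FD and its control and 6.62 and 6.60 in FR and its control, overlapped in both comparisons.

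Gad1 was read by 2 bright probes whose positions lie close together on chromosome 2. The first (A_51_P282538, chr2:70439601-70439660) gave log2 ratios of 0.07 and -0.01 in FD and 0.34 and -0.01 in FR. The second (A_52_P144310, chr2:70439699-70439758) gave 0.23 and -0.18 in FD and 0.36 and -0.02 in FR. Both probes were higher on array 1 than on array 2 in each comparison, and the levels of treated and control RNA overlapped. The remaining probe, drawn from an olfactory brain cDNA clone (A_52_P663538, chr2:70414796-70414855), was not well above background in any channel.

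Gad2 had 2 probes that differed in sign. On FD arrays 1 and 2 the dimmer probe (A_51_P452977, chr2:22545860-22545918) gave -0.24 and -0.14, while the brighter one (A_51_P495462, chr2:22549095-22549154) gave 0.25 and -0.11. In FR the dimmer probe gave 0.28 and -0.14. The brighter one gave 0.19 on FR array 2 and was flagged on FR array 1, where the kept spot stood at 0.76, past 1.5-fold on that array only. On the dimmer probe the FD levels, 9.56 and 9.54, lay below both control levels of 9.80 and 9.68, as was so for 18.8% of genes, and the FR levels overlapped those of their control. Its mean level was higher on the FD arrays (9.55 treated, 9.74 control) than on the FR arrays (9.31 treated, 9.24 control) in both kinds of RNA. The 2 probes thus gave no common direction for Gad2.

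Slc32a1, the vesicular GABA transporter, gave log2 ratios of 0.06 and -0.23 in FD and -0.09 and -0.19 in FR (A_52_P138926, chr2:158441324-158441383). In FR its levels, 14.51 and 14.45, lay below both control levels of 14.60 and 14.65, as was so for 21.7% of genes. In FD, levels of 14.61 and 14.43 overlapped the control levels of 14.55 and 14.66. The mean ratios of -0.09 in FD and -0.14 in FR were close to the technical SD, and the direction of Slc32a1 depended on the processing. The FR mean was 0.02 with the background model fitted on all spots, and the FD mean was 0.07 with median centring.

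Calb2 was read by 12 spots per array. On the probe with 10 spots, 9 of which were kept on FD array 1, the mean was -0.13 ± 0.11 (SD between spots) on FD array 1 and -0.02 ± 0.12 on FD array 2. It was -0.31 ± 0.10 on FR array 1 and 0.19 ± 0.16 on FR array 2. All 10 spots were below 0 on FR array 1, from -0.44 to -0.18, and all 10 above 0 on FR array 2, from 0.02 to 0.49. The brightest probe gave -0.37 and 0.14 in FD and -0.43 and 0.21 in FR. The remaining one gave -0.0021 and -0.11 in FD and -0.18 and 0.07 in FR. Its FD levels, 7.693 and 7.602, lay below both control levels of 7.695 and 7.716, as was so for 18.8% of genes. Its FR levels, and the levels of the other Calb2 probes in both comparisons, overlapped those of their control. The means over the 2 arrays lay between -0.12 and -0.06 for the 3 probes in both comparisons, all smaller than or close to the technical SD. In FR the gap of -0.49 between the arrays on the probe with 10 spots was larger than the spread between spots, and in FD the gap of -0.11 was not.

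**Figure D3:**
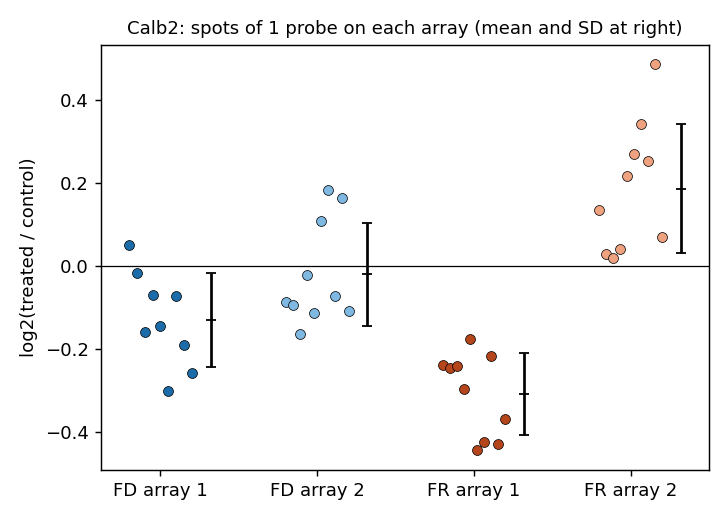
Log2 ratio of treated over control RNA for each kept spot of the Calb2 probe printed on 10 spots, by array (9 spots on FD array 1, 10 on each other array), with the mean and SD over spots at the right of each group. On FR the spots of array 1 lie all below 0 and those of array 2 all above.

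The gap between array 1 and array 2, which carried opposite dyes, had the same sign in FD and FR for 9 of the 11 probes of the set measured on all 4 arrays, against 71.9% of 16747 genes. For the brightest Calb2 probe it was -0.51 in FD and -0.64 in FR, for the second Gad1 probe 0.42 and 0.38, and for Dlx1 -0.19 and -0.20. Across genes the gaps of FD and FR correlated at r = 0.682, as a description over genes that share slide and dyes. The gap moves with the dye orientation, and its part in the single-array values of Gad1 and Calb2 was not tested.

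**Figure D4:**
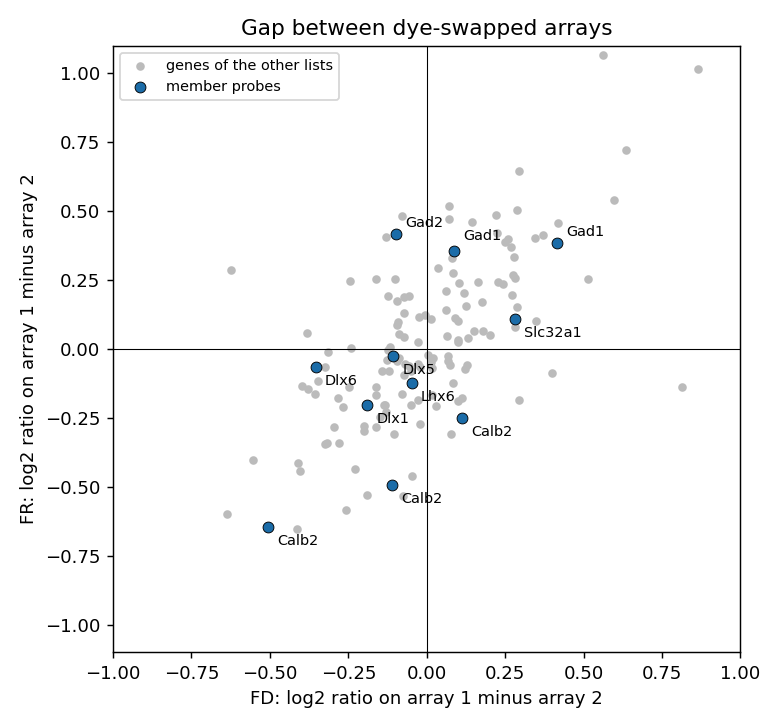
Log2 ratio on array 1 minus that on array 2 in FD (x axis) and in FR (y axis), for the 11 probes of the set measured on all 4 arrays (blue) and for 135 genes of the other lists (grey). The 3 Calb2 probes lie below 0 on the y axis, and both Gad1 probes above 0 on both axes.

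For FD against FR, the log2 ratios to control were subtracted between arrays of the same dye orientation. Of 8 measured genes 0 passed 1.5-fold in both differences, where 0.34% of 16747 genes did (0.0717% higher in FD and 0.269% lower). Dlx1 was lower in FD than in FR by -0.17 and -0.19 on the log2 scale, and Dlx5 by -0.13 and -0.05. Gad2 gave -0.52 and -0.0015 on its dimmer probe and Gad1 -0.27 and 0.0020 on its brighter one. Calb2 gave 0.07 and -0.07. In all, 3 genes were below 0 in both differences and 0 above, against 30.1% and 31.2% of all genes, and 61.3% of genes had the same sign in both. The technical SD of a mean difference was 0.0934. The mean difference for Dlx1, -0.18, was larger than that SD as processed here. It was -0.03 with the background model fitted on all spots and -0.04 with median centring, both smaller than that SD.

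Of 24 genes of interneuron specification and migration, 22 were measured in FD and 20 in FR, and 0 passed in either direction, where 0.217% and 1.01% of all genes passed. In FD 6 were above 0 and 8 below 0 on both arrays, against 25.5% and 23.3% of all genes. In FR 6 were above and 5 below, against 28.3% and 27.4%. Zeb2, which directs newborn interneurons to cortex, had the largest mean difference in both, with -0.43 and -0.33 in FD and -0.30 and -0.48 in FR. The nuclear receptor gene Nr2f2, a marker of the caudal eminence, gave -0.47 and -0.15 in FD. Satb1, which acts in somatostatin interneurons, gave 0.20 and 0.27. In FR, Lhx8, a partner of Lhx6 in the medial eminence, gave 0.30 and 0.35, and Npas1 gave -0.33 and -0.27. Nr2f1 differed in sign between the FR arrays, at 0.85, past 1.5-fold on that array, and -0.17. The list median was 0.02 in FD and 0.03 in FR.

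Of 13 markers of interneuron subtypes, 10 were measured in FD and 9 in FR. In both 0 passed, where 0.217% and 1.01% of all genes did. In FD 4 were above 0 and 0 below 0 on both arrays, against 25.5% and 23.3% of all genes. In FR 1 was above and 4 below, against 28.3% and 27.4%. The calcium-binding protein gene Calb1 gave -0.46 and -0.30 in FR, and Reln, which encodes a secreted guide of cortical layering, gave 0.38 and 0.30. Ndnf gave -0.10 and -0.56 in FR. In FD Lamp5, with the largest mean difference of the list, gave 0.09 and 0.34, and the peptide gene Cck 0.21 and 0.15. Medians were 0.03 in FD and -0.03 in FR. Of 9 genes of GABA uptake, breakdown and chloride transport, 9 were measured in FD and 8 in FR. Again 0 passed, against the same 0.217% and 1.01%. On both arrays 1 was above 0 and 2 below in FD, and 4 were above and 1 below in FR. The glutamine carrier gene Slc38a1 gave -0.31 and -0.23 in FD, and the GABA transporter gene Slc6a11 gave -0.05 and -0.45 in FR. Aldh5a1, which completes GABA breakdown, gave means of -0.09 in FD and 0.07 in FR. The list median was -0.03 in FD and 0.03 in FR.

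**Figure D5:**
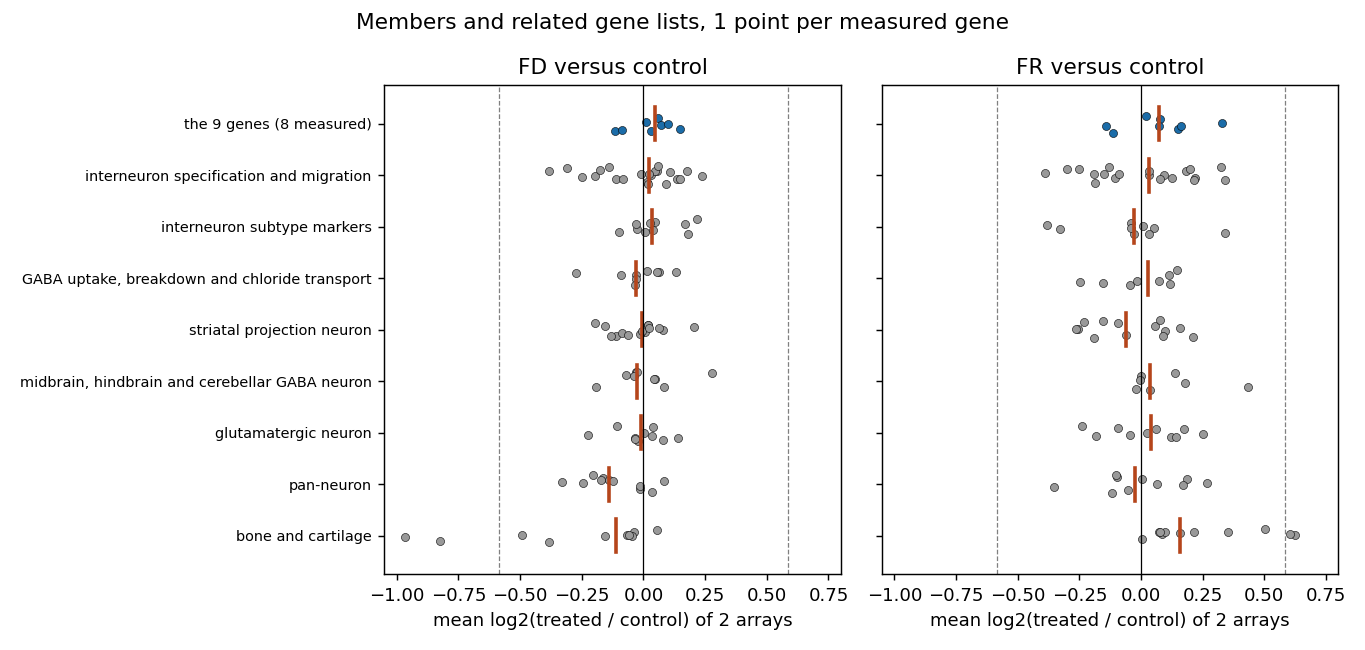
Mean log2 ratio of treated over control RNA over 2 arrays, 1 point per measured gene, for the set (blue) and for related lists (grey), in FD (left) and FR (right). Red bars are list medians and dashed lines mark 1.5-fold. The blue points lie between -0.12 and 0.15 in FD and between -0.14 and 0.33 in FR. Those of Gad2 and Lhx6 come from different probes in FD and FR.

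Of 11 pan-neuron genes 11 were measured in FD, with 6 below 0 and 1 above 0 on both arrays, against 23.3% and 25.5% of all genes. Their median was -0.14. In FR 10 were measured, with 3 below and 1 above and a median of -0.03. In markers of striatal projection neurons, of midbrain, hindbrain and cerebellar GABA neurons and of glutamatergic neurons 0 genes passed in FD or FR. Of all genes 0.217% passed in FD and 1.01% in FR. Oligodendrocyte lineage and astrocyte markers were low in FR, where 27.4% of all genes were below 0 on both arrays and 28.3% above. Of 8 oligodendrocyte lineage genes 6 were below 0 on both arrays and 0 above, with a median of -0.29 and 1 passing, Olig1 at -0.72. Of 7 astrocyte genes 5 were below 0 and 2 above in FR, with a median of -0.28. Of 7 microglia and macrophage genes 2 were below 0 and 0 above in FR, with a median of -0.02. The part of these neuron and glial values in the ratios of the 9 genes was not tested. On the arrays 71.4% to 85.3% of spots were well above background per channel. Marker RNA of tissue next to the brain differed between the pools, and the cause was not tested. In FD, 7 of 7 measured skeletal muscle genes were lower, led by Myl1 at -2.93, and the mean level of that list was 10.08 in the control RNA of the FD arrays against 7.99 to 8.37 in the other pools. Of 4 measured pituitary genes 4 were below 0 on both FD arrays and 2 passed, Gh with -1.56 and -1.48 and Pomc with -0.96 and -1.14, with a list median of -0.67. The Dlx5 and Dlx6 genes also act in bone. Of 10 measured bone and cartilage genes 2 passed as lower in FD, Col1a1 (-0.83) and Spp1 (-0.97), and the list median was -0.11. Of 11 in FR 1 passed as higher, Col2a1 (0.63), and the median was 0.16. Their mean level per array was 8.27 and 8.37 in FD against 8.60 and 8.63 in its control, and 8.57 and 8.54 in FR against 8.37 and 8.25. The Dlx genes of skeletal and skin tissue, Dlx3 and Dlx4, were not well above background on any array. The part of bone RNA in the Dlx5 and Dlx6 values was not tested.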

How the data were processed

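Total RNA of fetal brain was measured on 2-colour arrays from 1 slide. The files deposited by the authors hold, per the file headers, spot intensity and local background intensity in 2 channels from Agilent Feature Extraction 9.5.3.1, and a dye-normalised log10 ratio of red over green. The authors' deposited value table, per comparison with those files, holds log2 ratios of treated over control. Its scale, centring and direction were read from well-measured spots (correlations of 1, -1, 1 and -1 with log2 red over green), and how dim spots were treated is unknown. Column medians were -0.02, 0.02, -0.02 and 0.00097.

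A spot was left out where its local background exceeded 2 times that array's median, which removed at most 44 spots of an array (FR array 2). Intensities were corrected with normexp (offset 50) and loess with limma 3.58.1 (R 4.3.3), giving control spots weight 0. Control and outlier-flagged spots were then dropped and spots of a probe averaged. Channel levels were taken after Aquantile. Genes were named through RefSeq accession, then symbol (GRCm38.p6 table). A gene passed when both arrays reached 1.5-fold in 1 direction. The rule was run on simulated data, which could show only the recovery of changed genes. Unchanged genes were given opposite values on the arrays of a comparison, so none could pass, and no error shared by both arrays was simulated. The 9 genes, the 18 other lists and the settings were chosen with earlier results of these data known. All 9 genes are described with every probe; of other lists, a gene could be named if it passed or was among the 4 largest mean differences. Dlx6os1, Dlx6os2, Dlx3 and Dlx4 were named outside that rule. Conditions have 1 pool each, so nothing was tested.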

Additional observations from a re-analysis of the deposited data

Results flagged for a closer look

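No value of the 9 genes was singled out: each group has 2 arrays, too few to look for an outlying one, and none of the 9 had both FD arrays on 1 side of 0 and both FR arrays on the other. Of the genes named beside them, 7 did, and for these the difference between FD and FR was not tested. The bone and cartilage genes Spp1 (mean log2 ratio to control -0.97 in FD and 0.16 in FR), Col1a1 (-0.83 and 0.50), Bglap (-0.49 and 0.07), Ibsp (-0.38 and 0.60) and Col2a1 (-0.16 and 0.63) were below control in FD and above it in FR. The muscle gene Myl1 stood at -2.93 and 0.02, and Aldh5a1, the last enzyme of GABA breakdown, at -0.09 and 0.07.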

How the results depend on the processing

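The count of the 9 genes past 1.5-fold was 0 in all 3 comparisons under every alternative run, at 1.3-fold too. Dlx1 and Dlx5 stayed above 0 in FD and in FR under all 11 alternatives of their means, Dlx1 from 0.05 to 0.24 in FD and 0.18 to 0.43 in FR, Dlx5 from 0.01 to 0.11 and 0.08 to 0.19. Several of these could not turn the sign. Each gene has 1 probe, unflagged on every array, so the choices on probes and flags leave it as it was. Both arrays were already above 0 as processed here, so either array alone had to be. The scanner's ratio and the authors' deposited value table hold the same values. For FD against FR Dlx1 ranged from -0.19 to -0.03. Slc32a1 ranged from -0.23 to 0.07 in FD and -0.23 to 0.02 in FR. Gad2 ranged from -0.11 to 0.25 in FD and -0.14 to 0.48 in FR. These ranges mix its probes, since the value as processed here was of the brighter probe in FD and the dimmer in FR. The 0.48 was the brighter probe with its flagged spot kept. The median of the set in FD, 0.05, was 0.07 with the scanner's log ratio and the authors' deposited value table, 0.11 with median centring, 0.02 over all measured probes, 0.04 after centring on measured genes, 0.06 with flagged spots kept and 0.05 without background subtraction or with either array alone. In FR, 0.07 became 0.04 with normexp on all spots or median centring, 0.05 without background subtraction, 0.09 with the scanner's ratio or the authors' deposited value table, 0.16 with flagged spots kept, and 0.09 to 0.10 with 1 array left out. Over all genes, 39 passed in FD, against 141 with the scanner's ratio or the authors' deposited value table, 21 with median centring, 139 at 1.3-fold and 93 to 180 with 1 array left out. In FR 188 passed, against 13 with normexp on all spots, 604 with the scanner's ratio or that table, 37 with median centring, 700 at 1.3-fold and 479 to 552 with 1 array left out. For FD against FR 57 passed, against 28, 259, 66 and 274 under the same settings in that order, and 128 to 187 with 1 orientation left out. Normexp on all spots keeps the spots of high local background, which reached 65319 on FR array 2 and at most 112 on each other array. The cause of these differences between settings was not tested. Replicate numbers mark dye orientation; with no replicate block, means subtracted, 80 genes and 0 of the set passed. The splits of higher to lower were 16 to 23 in FD (2 to 19 with median centring, 74 to 67 with the scanner's ratio), 108 to 80 in FR (31 to 6 with median centring, 9 to 4 with normexp on all spots) and 12 to 45 for FD against FR (31 to 35, 135 to 124 and 2 to 26).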
